A study of Mus musculus with 20 samples.

Results

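The genes described here are 8 genes of MHC class II antigen presentation: H2-Aa, H2-Ab1, H2-Eb1, Cd74, H2-DMa, H2-DMb1, Ctss and Ciita. They were taken by symbol and not by a cut on their measured values, but earlier results of these data were known at that time. Every probe set that the array's annotation assigns to 1 of these symbols alone was taken. This gave 15 probe sets for 7 of the 8 genes, of 18193 genes that had such a probe set in the series. H2-DMb1 was covered only by 2 probe sets shared with H2-DMb2, so it has no value of its own here. After a filter on low signal, 10 of the 15 probe sets were tested. They belong to 6 genes: H2-Ab1 with 3 probe sets, H2-Aa with 3 of its 4, and H2-Eb1, Cd74, H2-DMa and Ctss with 1 each. The other 5 were 1 probe set of H2-Aa, 1 of H2-DMa and all 3 of Ciita.

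RNA of the left ventricle was hybridised to Affymetrix Mouse Genome 430 2.0 arrays, 1 per animal, in 20 male mice of the strain C57BL/6J. Statins inhibit HMG-CoA reductase, the enzyme that makes mevalonate for cholesterol synthesis. In the 4 statin groups the drug was mixed into the chow for 4 weeks: pitavastatin calcium at 4.5 mg/kg/day, pravastatin sodium at 21 mg/kg/day, rosuvastatin calcium at 10.9 mg/kg/day and atorvastatin calcium hydrate at 11.4 mg/kg/day. Control mice ate the same standard chow without drug, and each of the 5 groups held 4 mice. All mice had arrived at 6 weeks of age and had 2 weeks to acclimate; the labels describe no genetic change, disease model or immune challenge. The doses differ between the statins, so each is set against control and not against another statin.

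MHC class II molecules carry peptides from endocytosed protein to the surface of antigen-presenting cells, where CD4 T cells read them. An alpha and a beta chain pair in the endoplasmic reticulum with the invariant chain, which blocks the groove until endosomal proteases trim it and H2-DM exchanges the remaining fragment for a peptide. In the healthy heart these molecules are known mainly from resident macrophages and dendritic cells. Transcription of the group depends on the coactivator CIITA, which interferon gamma induces in many other cells, and in cultured human cells statins have been reported to repress that induced expression through CIITA.

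The promoters of the class II genes share an ordered set of elements, the X box and the Y box, on which CIITA acts; the stretch just before the start is shown for the member genes that held a pair of short matches to them. From RefSeq's GRCm38.p6 promoter table, which covers 250 bases before to 50 bases after each start, 6 promoters of 5 member genes were taken. The letters searched were GNAACT, a part of the X box, followed within 50 bases on the gene's strand by GATTGG, the Y box with its inverted CCAAT. These letters were chosen after the member promoters had been seen. In the sequences below, which run 5′ to 3′ on the gene's strand and end 1 base before the start, capitals mark both matches.
H2-Aa: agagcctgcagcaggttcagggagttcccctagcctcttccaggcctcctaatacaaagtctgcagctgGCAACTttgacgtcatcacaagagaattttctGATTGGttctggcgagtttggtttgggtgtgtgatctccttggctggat
H2-Eb1: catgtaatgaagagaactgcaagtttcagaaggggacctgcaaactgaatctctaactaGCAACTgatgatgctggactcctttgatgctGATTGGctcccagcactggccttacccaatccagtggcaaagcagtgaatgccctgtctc
H2-DMb1: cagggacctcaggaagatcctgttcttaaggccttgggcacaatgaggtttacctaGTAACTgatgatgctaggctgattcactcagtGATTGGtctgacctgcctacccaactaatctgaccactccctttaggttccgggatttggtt

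The H2-Aa stretch lies at chr17:34287824-34287973 on the minus strand, the H2-Eb1 stretch at chr17:34305717-34305866 on the plus strand and the H2-DMb1 stretch at chr17:34153041-34153190 on the plus strand, all in GRCm38.p6. In H2-Aa the first match began 81 bases before the start and the second 49 bases before it, with 26 bases between them. In H2-Eb1 they began 91 and 60 bases before the start, 25 bases apart, and in H2-DMb1 94 and 62 bases before it, 26 bases apart. So the spacing in the 3 genes differed by at most 1 base. The ordered pair was found on the gene strand in 124 of 32851 promoters (0.377%), and on either strand in 0.764%. Taken singly and on both strands, GNAACT was in 42.8% and GATTGG in 16.1% of promoters. The ordered pair was not in the table's window for Ctss or in either of the 2 windows for H2-DMa, and no promoter of H2-Ab1 or Ciita was matched. Cd74 was not among the member genes whose promoters were taken here, so nothing is said of its promoter.

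All arrays had been scaled by the authors to the same trimmed mean, 500.0 signal units, but their median signal ran between 41.7 in rosuvastatin mouse 3 and 144 in atorvastatin mouse 2. The first principal component over the tested probe sets held 57.2% of the variance. Over 12 comparisons of an array measure between a statin group and control (two-sided exact permutation test), the smallest p was 0.171, for the log2 median signal of rosuvastatin arrays, 6.09 ± 0.48, against 6.56 ± 0.26 in control arrays (SD, n = 4 each; adjusted p 0.925). In every comparison of a statin with control, 0 of the 22518 tested probe sets passed an adjusted p of 0.05, and the test of any difference among the 5 groups called 1. Those counts depended on control mouse 1: with its array left out they were up to 22 for a statin and 49 among the groups, with 0 member genes among them. Each array number is 1 mouse, and the number of arrays limits the precision; over all tested probe sets the median 95% interval of a statin's difference from control reached 0.36 on the log2 scale to either side. Levels below are log2(signal + 16) of the brightest probe set of a gene unless another is named, where 1 unit is a doubling of the signal plus 16, and fold changes are on that scale.

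H2-Aa, the alpha chain of the I-A molecule, was read by probe set 1435290_x_at. It was 11.38, 11.46, 11.52 and 11.15 in pitavastatin mice 1 to 4, and 11.62, 11.14, 11.55 and 11.35 in pravastatin mice. It was 11.29, 11.16, 10.94 and 11.36 in rosuvastatin mice and 11.42, 10.87, 11.14 and 11.48 in atorvastatin mice, against 10.77, 11.57, 11.20 and 10.88 in control mice. Control mice 1 and 4 were the low ones and control mouse 2 was nearly as high as any, so that 15 of the 16 statin arrays lay within the control range and no group was clear of the controls. The order of group means was pravastatin, pitavastatin, atorvastatin, rosuvastatin and control, which spanned 0.31, and neighbours in that order differed by less than their SDs of 0.16 to 0.36. The other 2 tested probe sets of H2-Aa put the groups in other orders, with pravastatin lowest on 1438858_x_at and rosuvastatin lowest on 1452431_s_at. They correlated with the brightest at r = 0.429 and r = 0.718 over the 20 arrays.

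H2-Ab1, the beta chain of I-A, was read by 1450648_s_at. Pitavastatin mice had 10.58, 10.89, 10.90 and 10.32, and pravastatin mice 11.12, 10.28, 10.31 and 10.33. Rosuvastatin mice had 10.56, 10.56, 10.53 and 10.55, and atorvastatin mice 10.48, 9.62, 10.43 and 10.62, against 9.98, 11.22, 10.60 and 10.14 in control mice. The 4 rosuvastatin mice were nearly equal (SD 0.01), whereas the controls spread over more than 1 unit (SD 0.55). Pravastatin mouse 1 and control mouse 2 were the highest and atorvastatin mouse 2 the lowest. All groups overlapped with control, and pitavastatin had the highest mean on each of the gene's 3 probe sets, with atorvastatin the lowest on each. The 3 probe sets correlated with one another at r = 0.687 to r = 0.808.

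H2-Eb1 encodes the beta chain of I-E, for which C57BL/6 mice lack a working alpha chain. Its level (1417025_at) was 10.67, 10.67, 10.63 and 10.42 in pitavastatin mice and 10.60, 10.02, 10.46 and 10.34 in pravastatin mice. It was 10.39, 10.18, 10.08 and 10.27 in rosuvastatin mice and 10.11, 9.63, 10.30 and 10.31 in atorvastatin mice, against 9.73, 10.98, 10.51 and 9.96 in control mice. The pitavastatin mice were the tightest group (SD 0.12) and sat in the upper part of the control range, above 2 of the 4 controls. Atorvastatin mouse 2 was the lowest of all 20 mice and control mouse 2 the highest.

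Cd74, the invariant chain that occupies the groove of new class II dimers, lies on chromosome 18 and was read by 1425519_a_at. Its level was 12.07, 12.07, 12.18 and 11.80 in pitavastatin mice and 12.11, 11.54, 11.78 and 11.72 in pravastatin mice. It was 11.67, 11.85, 11.84 and 11.77 in rosuvastatin mice and 11.60, 11.17, 11.72 and 11.86 in atorvastatin mice, against 11.22, 12.29, 11.94 and 11.51 in control mice. Atorvastatin mouse 2 was again lowest and control mouse 2 highest, and 15 of 16 statin arrays were inside the control range. The pitavastatin mean was 12.03 ± 0.16, the pravastatin mean 11.79 ± 0.24, the rosuvastatin mean 11.78 ± 0.08 and the atorvastatin mean 11.59 ± 0.30, against 11.74 ± 0.47 in control (SD, n = 4 each). Each statin's distance from control was smaller than the control SD.

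H2-DMa, the alpha chain of the peptide exchanger H2-DM, was dimmer (1422527_at). Pitavastatin mice had 7.54, 7.27, 7.82 and 8.04, and pravastatin mice 7.89, 6.66, 6.996 and 6.78. Rosuvastatin mice had 7.48, 7.52, 7.34 and 7.19, and atorvastatin mice 7.22, 6.61, 7.41 and 7.86, against 6.84, 7.87, 7.22 and 7.12 in control mice. Here 11 of the 16 statin arrays were within the control range, 2 above it and 3 below it. Pravastatin mouse 1 stood well above the other 3 pravastatin mice. The second probe set of the gene (1459872_x_at) was below the filter, with a mean signal of 42.4, and correlated with the first at r = 0.141.

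Ctss, cathepsin S, is the endosomal protease that trims the invariant chain in most antigen-presenting cells; it is not restricted to class II positive cells. Its level (1448591_at) was 11.83, 12.10, 12.05 and 12.06 in pitavastatin mice and 12.89, 11.62, 11.85 and 11.63 in pravastatin mice. It was 12.08, 11.89, 11.98 and 11.95 in rosuvastatin mice and 11.90, 11.35, 11.87 and 11.80 in atorvastatin mice, against 11.70, 12.12, 11.91 and 11.75 in control mice. Pravastatin mouse 1 was the highest of the 20 by a wide margin and atorvastatin mouse 2 the lowest, with 12 of the 16 statin arrays inside the control range. Pravastatin mouse 1 also stood apart in leukocyte genes. Its signal of Ptprc (CD45) was 828, against at most 435 in the other 19 mice, and that of the macrophage gene Adgre1 (F4/80) was 1334, against at most 460. The macrophage list as a whole did not set it apart. The mean level of its 19 measured genes was 9.24 in this mouse, between 8.89 in control mouse 1 and 9.38 in rosuvastatin mouse 3. The summed signal of 9 pan-leukocyte markers, of 10 in the list, was 18559 in this mouse and 6809 to 10663 in the others. The part of these cells in the Ctss value was not tested. In a tissue sample, fewer cells of a type and less RNA per cell cannot be told apart, and this holds for every gene here.

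Ciita, the coactivator itself, was not measured well enough to test. Its 3 probe sets had mean signals of 5.00, 5.80 and 46.4, all under the filter at 88.3. The brightest (1421210_at) had 5.60, 5.83, 5.85 and 6.74 in pitavastatin mice and 5.88, 6.02, 5.92 and 6.43 in pravastatin mice. It had 5.57, 5.37, 5.16 and 5.73 in rosuvastatin mice and 5.65, 6.96, 5.83 and 5.16 in atorvastatin mice, against 5.98, 5.87, 5.57 and 6.55 in control mice. The 4 rosuvastatin mice were in the lower part of the range, but at this brightness no difference was tested. The 3 probe sets did not follow one another, with r between -0.184 and -0.005 over the 20 arrays, and so give no common reading of the gene.

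**Figure D1:**
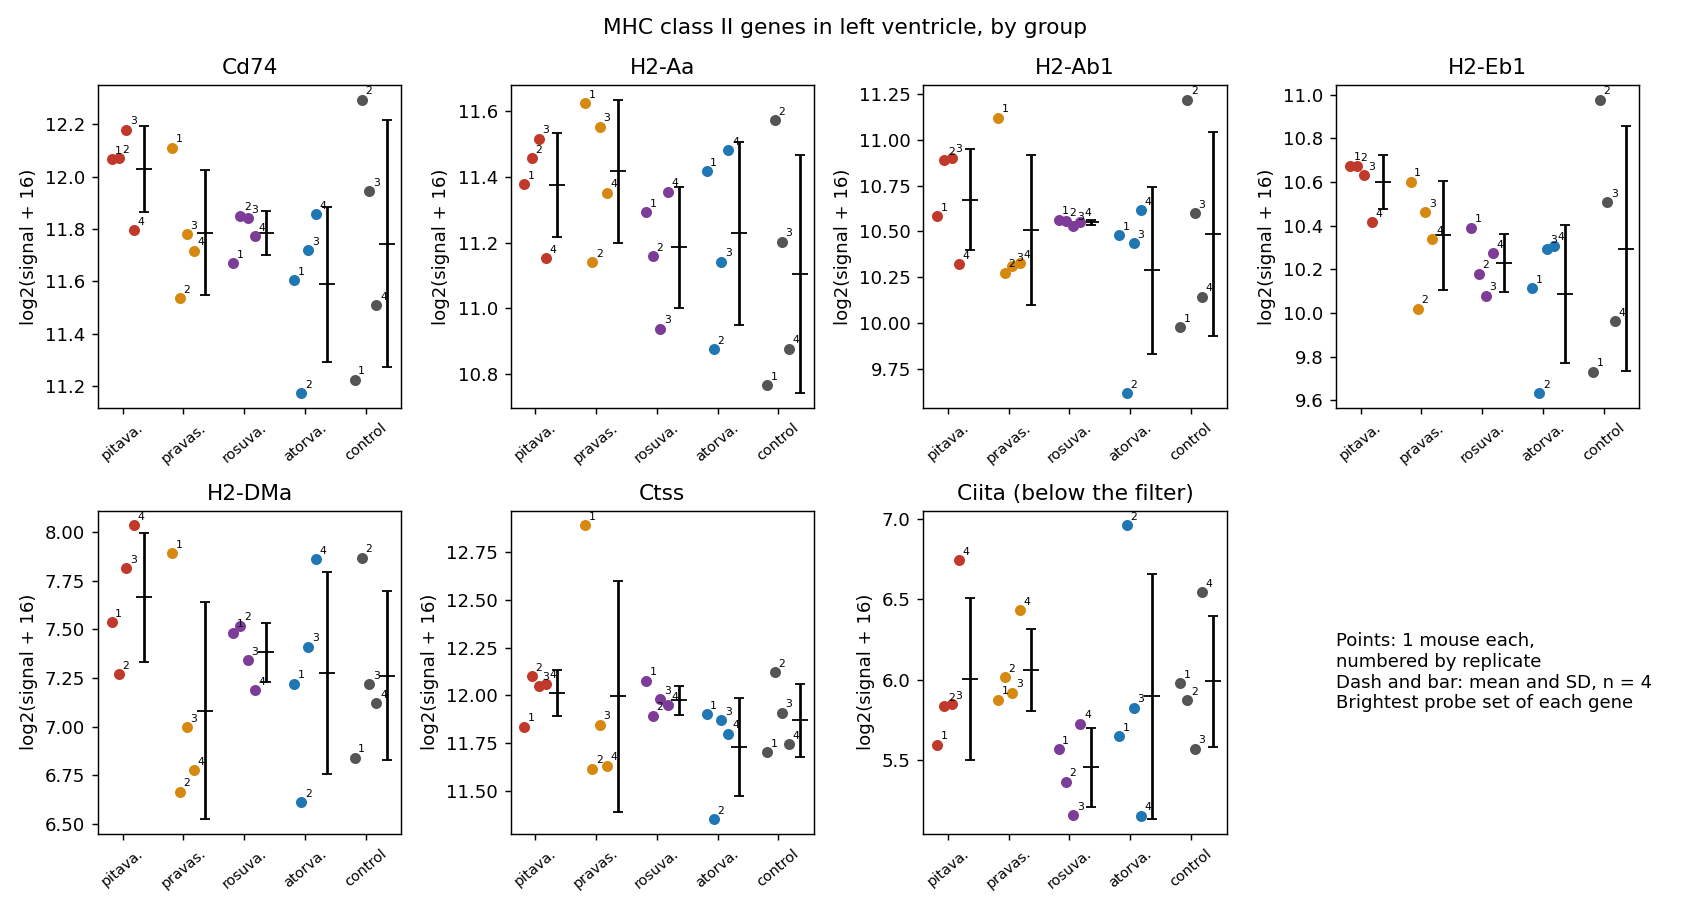
Level of each gene in each mouse, as log2(signal + 16) of its brightest probe set, with the group mean and SD beside the points (4 mice per group, numbered by replicate). In H2-Ab1, for example, the 4 rosuvastatin mice lie between 10.53 and 10.56, and 15 of the 16 statin values lie inside the range of the 4 control mice, 9.98 to 11.22.

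The first comparison was pitavastatin against control, which asks whether the statin changed class II expression in the resting heart. No member probe set passed the test: 0 of 10 had an adjusted p under 0.05 by limma, where 0% of all tested probe sets did, and 0 had an unadjusted p under 0.05, where 1.89% of all did. The sign was nevertheless shared, with all 10 probe sets higher in pitavastatin mice, where 48.9% of all tested probe sets were. The 10 are not independent readings, since they come from 6 genes whose levels moved together across the mice. By gene the log2 differences were 0.27 for H2-Aa, 0.19 for H2-Ab1, 0.30 for H2-Eb1, 0.28 for Cd74, 0.40 for H2-DMa and 0.14 for Ctss, with SEs of 0.16 to 0.29 (n = 4 each). Their median was 0.28, against 0.003 over the 11201 tested genes.

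The largest difference with pitavastatin was on a second probe set of H2-Ab1, 1451721_a_at. It had 8.77, 8.90, 8.94 and 8.50 in pitavastatin mice, against 7.38, 9.21, 8.41 and 7.92 in control mice. The pitavastatin mice were all above 3 of the 4 controls and all below control mouse 2. The log2 difference was 0.55, with a 95% interval of -0.04 to 1.13 (unadjusted p 0.0654, adjusted p 0.9999 by limma). For Cd74 the interval was -0.10 to 0.67, which is 0.934-fold to 1.59-fold, so a rise of more than 1.59-fold or a fall below 0.934-fold lay outside it. None of the 10 probe sets had all 4 pitavastatin mice above all 4 controls, a separation found in 0.906% of all tested probe sets, or all 4 below, found in 0.773%. The size of the member median depended on the controls: it was 0.11 without control mouse 1 and 0.45 without control mouse 2.

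With pravastatin, 0 of 10 member probe sets passed an adjusted p of 0.05 by limma, where 0% of all tested probe sets did, and 0 passed unadjusted, where 3.9% did. The difference was above 0 in 7 of 10 member probe sets, where it was in 44.8% of all. H2-Aa had the largest gene value, 0.31 (95% interval -0.03 to 0.66), with all 4 pravastatin mice above the control mean; the other H2-Aa probe sets gave -0.05 and -0.03. H2-Ab1 was at 0.02, H2-Eb1 at 0.06 and Cd74 at 0.04, H2-DMa was at -0.18, and the median of the 6 genes was 0.05, against -0.012 over all tested genes. That median turned to -0.13 without control mouse 1 and was 0.25 without control mouse 2. Ctss was at 0.13 with pravastatin mouse 1 and at -0.17 without it, neither past the test. No member probe set separated the groups, where 1.91% of all had every pravastatin mouse higher and 1.03% every one lower.

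With rosuvastatin, 0 of 10 member probe sets passed an adjusted p of 0.05 by limma, where 0% of all tested probe sets did, and 0 passed unadjusted, where 11.1% did. The difference was above 0 in 7 of 10, where it was in 45.7% of all. Gene values were small and of both signs: 0.08 for H2-Aa, 0.07 for H2-Ab1, -0.06 for H2-Eb1, 0.04 for Cd74, 0.12 for H2-DMa and 0.11 for Ctss. Their median was 0.07, against 0.015 over all tested genes, and it was -0.07 without control mouse 1 and 0.23 without control mouse 2. For Cd74 the 95% interval was -0.34 to 0.42. No member probe set separated the groups, where 1.87% of all had every rosuvastatin mouse higher and 2.75% every one lower. With each array centred on its median, the median of all tested probe sets moved by 0.38 in this comparison. Centring shifts every probe set of an array alike, so the members' distance of 0.09 above all probe sets could not change under it. With quantile normalization, which can change that distance, the members were -0.01 relative to all, and Cd74 changed sign to -0.01.

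With atorvastatin, 0 of 10 member probe sets passed an adjusted p of 0.05 by limma, where 0% of all tested probe sets did, and 0 passed unadjusted, where 4.52% did. The difference was above 0 in 3 of 10, where it was in 43.7% of all. H2-Ab1 was at -0.20, H2-Eb1 at -0.21, Cd74 at -0.15 and Ctss at -0.14, while H2-Aa was at 0.12 and H2-DMa at 0.01. The median of the 6 genes was -0.15, against -0.0125 over all tested genes; it was -0.26 without control mouse 1 and 0.04 without control mouse 2. Atorvastatin mouse 2, the lowest of the 20 mice on 7 of the 10 probe sets, had the highest median signal of all arrays; the part of that brightness in its values was not tested. No member probe set separated the groups, where 0.795% of all had every atorvastatin mouse higher and 0.568% every one lower. For Cd74 the interval was -0.54 to 0.23, which is 0.689-fold to 1.17-fold.

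**Figure D2:**
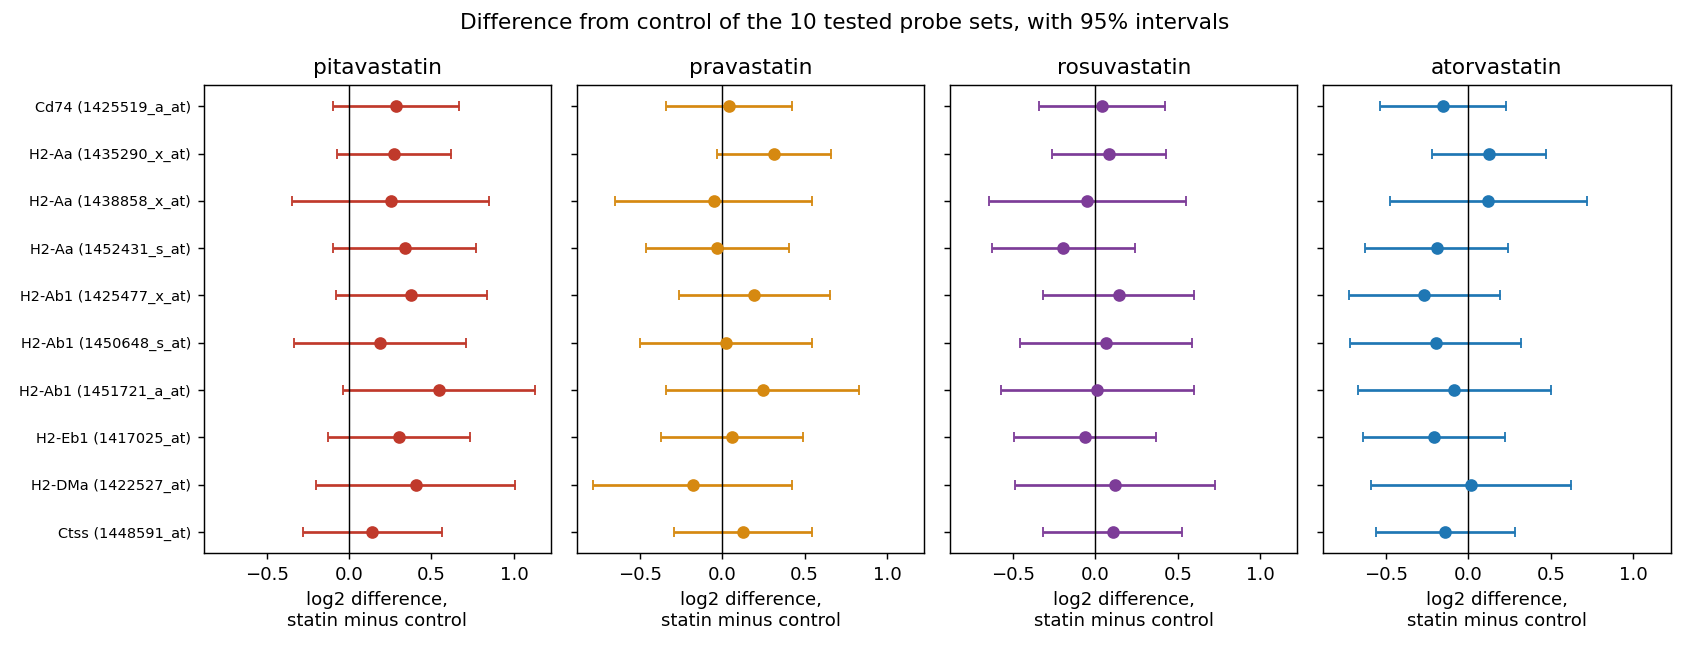
Log2 difference of each statin group from control for the 10 tested probe sets, with 95% intervals from limma (4 mice per group). All 40 intervals include 0; the pitavastatin points lie at or above 0.14 and those of atorvastatin between -0.27 and 0.12.

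For the mean of the 4 statins against control, 0 of 10 member probe sets passed an adjusted p of 0.05 by limma, where 0% of all tested probe sets did, and 0 passed unadjusted, where 3.01% did. The mean difference was above 0 in 9 of 10, where it was in 44.5% of all, and the median of the 6 genes was 0.06, against 0.0003 over all tested genes. Without control mouse 1 that median was -0.08, and without control mouse 2 it was 0.26. Cd74 averaged 11.80 over the statin groups and 11.74 in control, a difference of 0.05 (95% interval -0.25 to 0.36). Among the 5 groups, 0 member probe sets passed the moderated F test at an adjusted p of 0.05, where 0.00444% of all did, and 0 passed it unadjusted, where 6.19% did. The smallest unadjusted p of a member was 0.0823, for 1425477_x_at of H2-Ab1 (adjusted p 0.788 by limma). Pitavastatin had the highest mean of the 5 groups on 9 of the 10 probe sets and atorvastatin the lowest on 6.

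The spread among mice of 1 group, pooled over the groups, was above the median of the tested probe sets but within their usual range. The within-group SD of the 10 probe sets was 0.25 to 0.45, against a median of 0.24 over all tested probe sets. Each of the 10 was above that median, with 54.4% to 81.7% of tested probe sets having a smaller SD. The groups were not alike in this. The control group had the largest SD of the 5 groups on 6 of the 10 probe sets, and pitavastatin and rosuvastatin had the smallest on 4 each. Control mouse 2 was the highest control on all 10 and the highest of the 20 mice on 5. Control mouse 1 was the lowest control on 8.

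**Figure D3:**
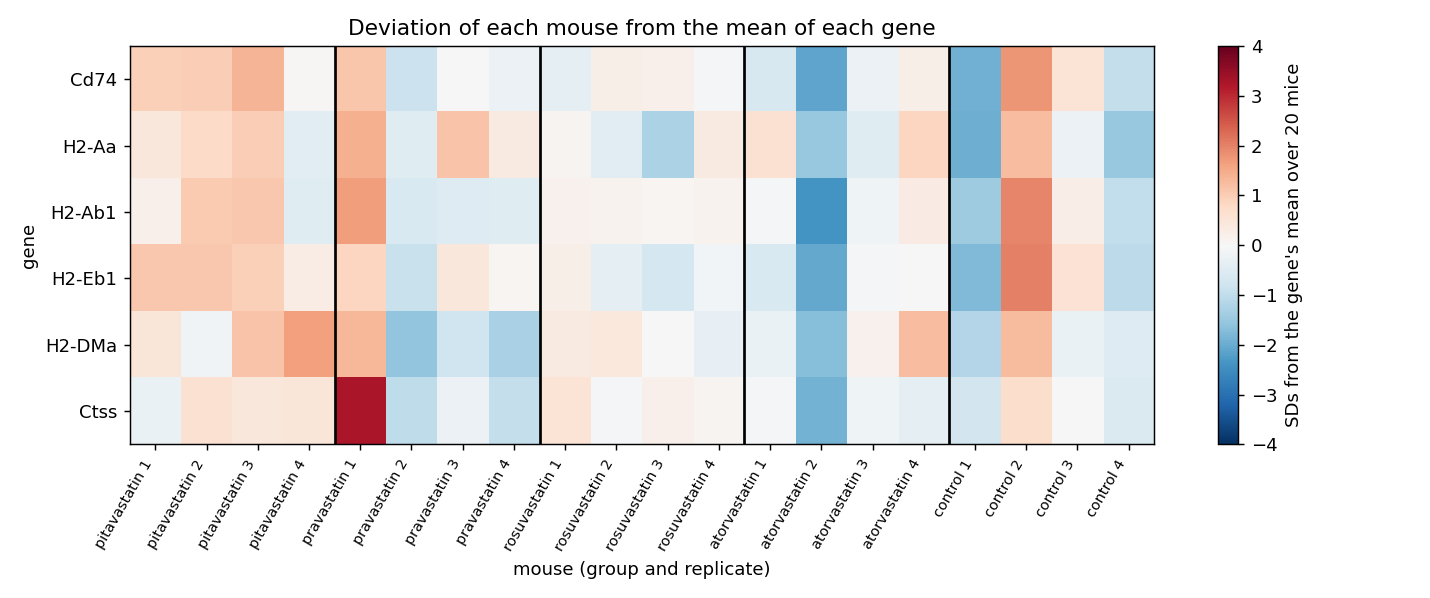
Deviation of each mouse from the mean of each gene over the 20 mice, in SDs (columns are mice, rows are genes, red is higher and blue lower). Pravastatin mouse 1 and control mouse 2 are high across the rows, and atorvastatin mouse 2 and control mouse 1 are low across them.

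The member genes varied together from mouse to mouse. Over the 20 arrays all 15 pairs of the 6 genes had an adjusted permutation p under 0.05, with a median Pearson r of 0.727. The closest pairs were those of the invariant chain with the beta chains. Cd74 and H2-Eb1 had r = 0.936 (permutation p 1e-05, the smallest that 100000 permutations can give; adjusted p 7.5e-05) and Spearman rho = 0.854, and r was 0.885 without the 2 arrays farthest from the median. Cd74 and H2-Ab1 had r = 0.927 with rho = 0.899 (permutation p 1e-05 for both, adjusted p 7.5e-05 for r), and r = 0.882 without 2 arrays. The loosest pair was H2-Aa with H2-DMa, at r = 0.503 (permutation p 0.0245, adjusted p 0.0245) and rho = 0.516 (p 0.0217), with r = 0.313 without 2 arrays.

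These relations were as close within groups. With each group's mean subtracted, Cd74 had r = 0.925 with H2-Eb1 and r = 0.936 with H2-Ab1, and over the 16 statin arrays alone the values were 0.891 and 0.899. With the first principal component of the other probe sets removed, a step added after seeing the data, they were 0.946 and 0.92, and the median over the 15 pairs was 0.681. The arrays share labelling and scaling steps, and pairs that share a gene are not independent. Ciita did not share the pattern on its brightest probe set, where r with the 6 genes ran between -0.529 and -0.293 at signals below the filter.

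Cd74 was then set against 18 other measures of each array: mean levels of 14 gene lists and 4 measures of array quality. It was related to 17 measured genes of the interferon gamma induced list, of 18 listed, which holds guanylate-binding proteins, immunity-related GTPases and immunoproteasome subunits. Pearson r was 0.7 (permutation p 0.00058, adjusted p 0.0104) and rho was 0.747 (p 0.00021, adjusted p 0.00378), with r = 0.683 without the 2 farthest arrays and 0.622 with group means subtracted. It was also related to the class I presentation list, at r = 0.62 (permutation p 0.00367, adjusted p 0.033) and rho = 0.665 (p 0.00182, adjusted p 0.0164), with r = 0.577 without 2 arrays and 0.434 with group means subtracted. These lists share 2 genes. The relations of Cd74 to the pan-leukocyte list (r = 0.507, rho = 0.48, permutation p 0.0247, adjusted p 0.108) and to the macrophage list (r = 0.484, rho = 0.334, permutation p 0.03, adjusted p 0.108) did not pass, and without 2 arrays they were 0.35 and 0.101. Nor did the endothelial list (r = 0.5, rho = 0.516, permutation p 0.024, adjusted p 0.108), which had r = 0.561 without 2 arrays. The dendritic cell and monocyte list (r = -0.451, rho = -0.266, permutation p 0.0461, adjusted p 0.109) and the B cell list (r = -0.446, rho = -0.377, permutation p 0.0484, adjusted p 0.109) were negative and did not pass, and without 2 arrays they were -0.014 and -0.168. The array's log2 median signal had r = -0.427 with Cd74 (rho = -0.388, permutation p 0.0595, adjusted p 0.119). That r was -0.178 without 2 arrays and -0.589 with group means subtracted.

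Ctss, set against the same 18 measures, was related most closely to the pan-leukocyte list. Pearson r was 0.915 (permutation p 1e-05, adjusted p 0.00018) and rho was 0.827 (p 2e-05, adjusted p 0.00036). Without pravastatin mouse 1 r was 0.777, and without that mouse and atorvastatin mouse 2 it was 0.677. The interferon gamma induced list (r = 0.631, rho = 0.66, permutation p 0.00147, adjusted p 0.0132) and the macrophage list (r = 0.554, rho = 0.686, permutation p 0.00863, adjusted p 0.0388) passed too, with r = 0.506 and r = 0.604 without 2 arrays. So did the class I presentation list (r = 0.568, rho = 0.585, permutation p 0.00805, adjusted p 0.0388), with r = 0.414 without 2 arrays. Ctss ran against the array's log2 median signal, at r = -0.555 (permutation p 0.0227, adjusted p 0.0682) and rho = -0.541 (p 0.0153, adjusted p 0.0403), with r = -0.368 without 2 arrays. By rho but not by r it also ran against the first principal component (r = -0.532, permutation p 0.0321, adjusted p 0.0722; rho = -0.573, adjusted p 0.0345; r = -0.338 without 2 arrays). The same held for the dendritic cell and monocyte list (r = -0.597, permutation p 0.0194, adjusted p 0.0682; rho = -0.54, adjusted p 0.0403; r = -0.384 without 2 arrays). The part of array brightness in the Ctss values was not tested. Whether Cd74 and Ctss differ in these relations was not tested.

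**Figure D4:**
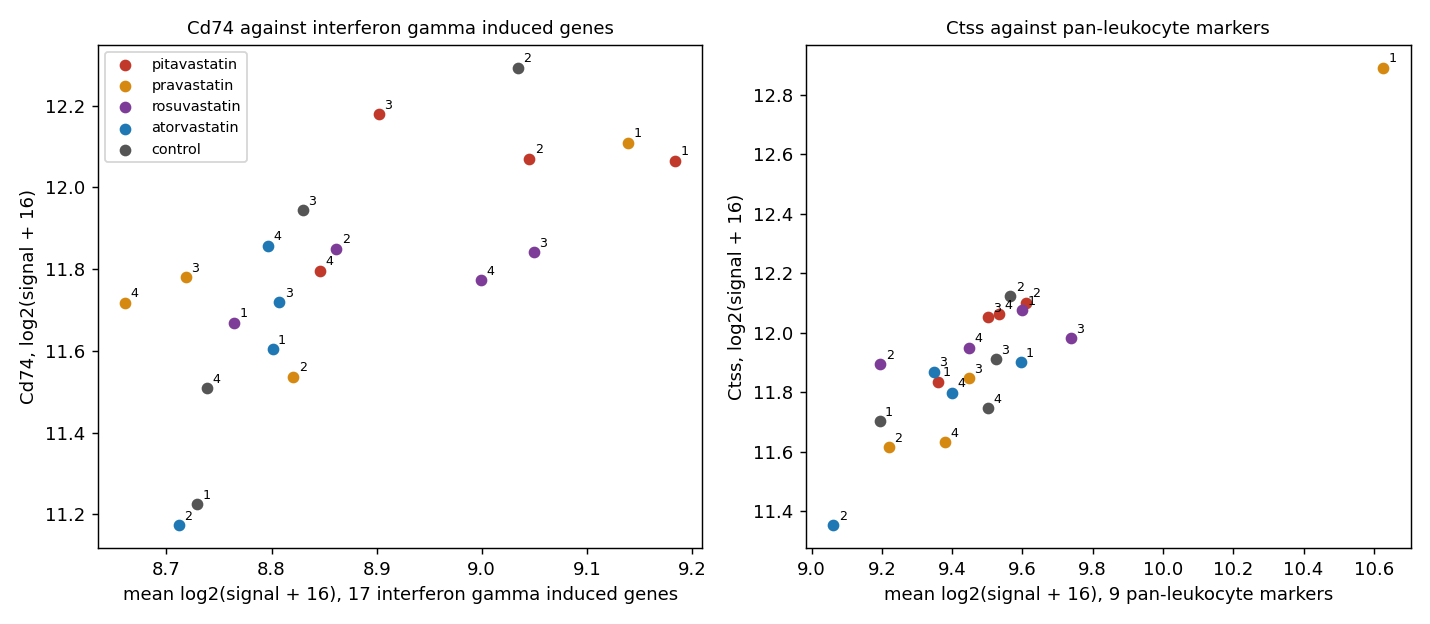
Left, the level of Cd74 in each mouse against the mean level of 17 interferon gamma induced genes (r = 0.7); right, the level of Ctss against the mean level of 9 pan-leukocyte markers (r = 0.915, and 0.777 without pravastatin mouse 1). All axes are log2(signal + 16), each point is 1 mouse, and colours are groups; pravastatin mouse 1 lies far from the others in the right panel.

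The cells that could carry class II were checked with their markers. Csf1r, the receptor that macrophages depend on, was bright in every mouse, with signals between 3168 and 4740. T and NK cell markers were low: 10 of the 12 listed had a probe set, their mean signals were 19.1 to 59.8, and 0 passed the filter. Of the dendritic cell and monocyte list 5 of 15 were measured and of the B cell list 3 of 12, while the dendritic cell gene Itgax (CD11c) reached at most 71.0. No gene of any marker list passed the test in any comparison. Ighm of the B cell list was at 0.74 with atorvastatin (unadjusted p 0.000261, adjusted p 0.778 by limma), where the other 2 measured genes were below 0. Timd4 of the macrophage list was at -0.98 with rosuvastatin (unadjusted p 0.00218, adjusted p 0.448 by limma), where 12 of 19 genes were above 0. The 19 macrophage genes had a median difference of 0.08 for pitavastatin against control, -0.04 for pravastatin, 0.11 for rosuvastatin, and -0.11 for atorvastatin. With pitavastatin 9 of 10 endothelial genes (median 0.15) and 9 of 11 cardiomyocyte genes (median 0.12) were above 0, where 50.8% of all tested genes were. Of the 10 endothelial genes 2 had an unadjusted p under 0.05 by limma, where 215 of 11201 tested genes did. Of the 11 cardiomyocyte genes 0 were above 0 with pravastatin, 1 with rosuvastatin and 0 with atorvastatin. The shares of all tested genes above 0 were 47%, 53.5% and 47.1% there. Of the 9 pan-leukocyte genes, 6 were above 0 for pitavastatin against control, 9 for pravastatin, 5 for rosuvastatin and 1 for atorvastatin. The part of these cells in the class II values was not tested.

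Of the other genes of the class II pathway, 12 of 16 listed were measured and 0 passed the test in any comparison. Ifi30, the lysosomal thiol reductase GILT that opens disulphide bonds of antigens, was at 0.22 with rosuvastatin (95% interval 0.01 to 0.43, unadjusted p 0.037, adjusted p 0.448 by limma). H2-DMb2, a beta chain of H2-DM, was at -0.51 with the same statin (95% interval -0.98 to -0.04, unadjusted p 0.0363, adjusted p 0.448 by limma). Lgmn, asparagine endopeptidase, was at 0.16 with pitavastatin. The 12 genes had a median difference of 0.02 for pitavastatin against control, -0.15 for pravastatin, -0.11 for rosuvastatin, and -0.09 for atorvastatin.

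Of the factors that bind class II promoters or act with them, 15 of 16 were measured and 0 passed. Rfx5, the subunit of the X box complex, was at 0.21 with rosuvastatin (95% interval -0.13 to 0.56). Creb1, which binds next to it, was at -0.29 with pitavastatin (95% interval -0.55 to -0.04, unadjusted p 0.0261, adjusted p 0.9999 by limma) and at 0.17 with pravastatin. Nfya, a subunit of the factor that binds the Y box, was at 0.23 with rosuvastatin. Rfxank, another subunit of the X box complex, was at 0.25 with pitavastatin and -0.19 with pravastatin, neither past the test.

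Interferon gamma signalling genes (11 of 13 measured) and the genes it induces (17 of 18) gave 0 calls. Of the 11 signalling genes 4 were above 0 for pitavastatin against control (median -0.014), 7 for pravastatin (0.10), 10 for rosuvastatin (0.10) and 7 for atorvastatin (0.02). Irf1 of this list, which binds a promoter of Ciita, was at 0.24 with pitavastatin (95% interval -0.03 to 0.51). Of the 17 induced genes 14 were above 0 for pitavastatin (median 0.17), 10 for pravastatin (0.05), 13 for rosuvastatin (0.11) and 6 for atorvastatin (-0.06). Tap1, a transporter subunit for class I peptides, was at 0.43 and the chemokine Cxcl10 at -0.32 with pitavastatin. Of the 12 class I presentation genes 11 were above 0 for pitavastatin (median 0.18), 8 for pravastatin (0.02), 7 for rosuvastatin (0.05) and 4 for atorvastatin (-0.08). H2-K1, a class I heavy chain, was at -0.30 with atorvastatin (95% interval -0.57 to -0.03, unadjusted p 0.0295, adjusted p 0.967 by limma). Of all tested genes, 50.8% were above 0 for pitavastatin, 47% for pravastatin, 53.5% for rosuvastatin and 47.1% for atorvastatin.

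The 10 genes whose pattern over the 20 mice was most like the mean of standardised Cd74, H2-Aa, H2-Ab1 and H2-Eb1 were named by Pearson r, as a description. They were Psma7 (0.866), Osbpl2 (0.861), Tmod4 (0.86), Cox10 (0.856), Atp6v1e1 (0.856), Bckdhb (0.849), Polr1d (0.843), Ppif (0.842), Ptp4a3 (0.841) and Psmb4 (0.837). None of them was in any of the gene lists. Of the 100 nearest probe sets 3 were of class I presentation genes, and the share over all tested probe sets was not computed. The interferon gamma induced, pan-leukocyte, macrophage and other class II pathway lists had 0 each among those 100. Their 17, 9, 19 and 12 measured genes are few beside the 18935 tested probe sets with 1 symbol. A count of 0, there or among the nearest 10, therefore says nothing of their likeness to the class II genes. The r of these 10 genes with the first principal component ran between -0.607 and -0.259, and that of the class II mean with it was -0.371; the part of that component in the likeness was not tested.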

How the data were processed

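Left ventricle RNA of 20 mice was labelled from 100 ng by the NuGEN Ovation V2 system, per the labels' protocols. The deposited value of a probe set is a linear signal intensity that the authors computed with MAS5, per the submitters' processing notes; the version and any detection calls are not given in the sources used here. Each array has the same trimmed mean. From these, 64 control probe sets were left out, 16 was added and log2 taken, and the brighter 50% of 45037 probe sets by mean signal (above 88.3) were tested, 22518 in all. Gene names came from the platform annotation: 34945 probe sets had 1 symbol, 932 several and 9160 none, and 34741 matched RefSeq by identifier, with 0 renamed.

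Groups were compared by limma 3.58.1 (R 4.3.3), with 1 mean per group over all 20 arrays, eBayes with its trend option (15 residual degrees of freedom and 4.23 from the prior) and Benjamini-Hochberg adjustment over all tested probe sets. These tests weigh a difference between groups against the spread between mice of a group. Each mouse was read on 1 array, so spread between mice and spread between arrays cannot be told apart. Correlations used 100000 permutations (Python 3.11.15, numpy 2.4.6, ranks for rho by scipy 1.17.1), adjusted over the 15 pairs or 18 measures of a family. Array measures were compared by exact permutation in Python with numpy. The fitting procedure was run on simulated data in which each probe set varied independently of the others. Probe sets of these arrays share a large component, so that run cannot show how the fit behaves here.

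All members were named, and of each list the defining markers and some of the 2 highest and 2 lowest differences per comparison; the nearest 10 genes by pattern were taken by r. Members and lists were chosen with earlier results of these data known. The result of 1 list is not reported here. No label says that replicate numbers pair mice. Deviations of same-numbered mice correlated above 0.1 in all 4 pairs of pitavastatin with control (0.12 to 0.441), so those were treated as pairs in an alternative fit. Over the 16 pairs of the 4 statins with control 9 did (range -0.549 to 0.563), and no other statin had all 4.

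Results were recomputed without the filter, with the brightest 30%, with pseudocounts of 1 and 64, quantile normalization, centring on the array median, no trend, the replicate block, the array median as a covariate, only the groups compared, and each array left out; leaving out 2 controls, the replicate block with only pitavastatin and control, and removing the first principal component were added after seeing the data.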

Additional observations from a re-analysis of the deposited data

Results flagged for a closer look

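A single mouse was set apart from the other 3 of its group, by a gap large relative to the group's range, in 6 of the 75 group values of the member probe sets; chance gives about 1 in 20. On the log2(signal + 16) scale, H2-Ab1 (1450648_s_at) was 11.12 in pravastatin mouse 1, with the other pravastatin mice between 10.28 and 10.33. The same mouse had the highest Ctss and leukocyte marker signals, whose part in this value was not tested. The other 5 were on Ciita probe sets below the signal filter. For 1421211_a_at these were rosuvastatin mouse 3 at 5.17, with the others between 4.25 and 4.29, and atorvastatin mouse 1 at 4.16, with the others between 4.33 and 4.34. For 1447075_at they were pitavastatin mouse 3 at 4.13 (others 4.25 to 4.27), rosuvastatin mouse 2 at 4.70 (others 4.20 to 4.24) and control mouse 4 at 4.59 (others 4.16 to 4.23).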

How the results depend on the processing

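No member gene passed the threshold in any of 325 values recomputed under other settings (smallest adjusted p 0.308) or in 600 with 1 array left out (smallest 0.486), all with limma; 18 and 38 of these changed sign. With quantile normalization the sign changed for H2-Ab1 with pravastatin (-0.0059), Cd74 with rosuvastatin (-0.0126), and H2-Ab1 (-0.0119) and H2-Eb1 (-0.009) for the mean of the statins. Centring each array on its median moved the median of all tested probe sets by 0.38 with rosuvastatin, 0.10 with pravastatin and 0.15 for the mean of the statins; the rosuvastatin member median became 0.46, H2-Eb1 there 0.32, and the calls among the 5 groups 0. With the array's median signal as a covariate, Cd74 (-0.0136) and H2-Ab1 (-0.064) changed sign with pravastatin, Cd74 (-0.17), H2-Aa (-0.0459), H2-Ab1 (-0.26), H2-DMa (-0.16) and Ctss (-0.14) with rosuvastatin, and H2-DMa (-0.0512) with atorvastatin; for the mean of the statins Cd74 (-0.0314), H2-Ab1 (-0.11), H2-Eb1 (-0.0515), H2-DMa (-0.0223) and Ctss (-0.0401) did. That setting called 6 probe sets with pravastatin. The brightest 30% of probe sets, which leave no value for H2-DMa, gave 3 calls with pravastatin and 3 among the 5 groups, and no trend in the prior gave 0 among them. The replicate block gave 6 calls among the 5 groups, changed no call against control and called 0 members. In pitavastatin against control, where all 4 same-numbered pairs correlated above 0.1, the replicate block gave 0 calls over all probe sets and a member median of 0.28, in the fit of all groups and in one of these 8 arrays alone, added after seeing the data. Leaving out control mice 1 and 2 together, chosen after seeing the data, gave 9 calls with pravastatin, 10 with rosuvastatin, 4 with atorvastatin, 5 for the mean and 25 among the groups, with 0 members. The cause of these shifts was not tested.

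With each array left out in turn, calls over all probe sets ran from 0 to 22 with pravastatin, 0 to 17 with rosuvastatin, 0 to 21 with atorvastatin, 0 to 9 for the mean of the statins and 0 to 49 among the groups, the highest each time without control mouse 1. The member median lay between 0.11 and 0.45 for pitavastatin, -0.13 and 0.25 for pravastatin, -0.07 and 0.23 for rosuvastatin, -0.26 and 0.04 for atorvastatin, and -0.08 and 0.26 for the mean of the statins, lowest without control mouse 1 and highest without control mouse 2. Member genes that changed sign ranged as follows. With pravastatin Cd74 ran from -0.13 to 0.23, H2-Ab1 from -0.18 to 0.27, H2-Eb1 from -0.13 to 0.29, H2-DMa from -0.45 to 0.0234 and Ctss from -0.17 to 0.25. With rosuvastatin Cd74 ran from -0.13 to 0.22, H2-Aa from -0.0307 to 0.24, H2-Ab1 from -0.10 to 0.31, H2-Eb1 from -0.25 to 0.16 and H2-DMa from -0.0195 to 0.32. With atorvastatin Cd74 ran from -0.33 to 0.0289, H2-Ab1 from -0.37 to 0.0466, H2-Eb1 from -0.40 to 0.0198 and H2-DMa from -0.18 to 0.24. For the mean of the statins Cd74 ran from -0.12 to 0.24, H2-Ab1 from -0.15 to 0.26, H2-Eb1 from -0.16 to 0.25, H2-DMa from -0.0507 to 0.29 and Ctss from -0.016 to 0.14. With pitavastatin the members kept their sign in all runs. With 4 mice per group, differences smaller than about the interval's reach could not be resolved, and Ciita could not be read at its brightness.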

Other observations

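H2-Ea, the alpha chain of I-E, whose gene is defective in C57BL/6 mice, was examined after the other values had been seen. Its 3 probe sets had mean signals of 53.1, 17.99 and 6.37 over the 20 mice, all below the filter.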
